A study of Homo sapiens with 5 samples.

Results

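The genes described here are 10 rows of a gene count table of HEK293, a human embryonic kidney line in long use that carries adenovirus E1 genes. They are HIF1A, EGLN1, VEGFA, ADM, DDIT4, PLOD2, P4HA1, P4HA2, BNIP3 and BNIP3L, out of 24497 gene rows. All were picked by symbol as genes of the hypoxia response, and DDIT4 and PLOD2 were chosen by their higher counts in batch B than in batch A. The comparison of the batches was therefore used to choose the group, and the values of the 10 genes in that comparison are given as a description, without a p-value. Batch B has 3 libraries, numbered 1, 2 and 3, and batch A has 2 libraries, numbered 2 and 3, after the ends of the column names. Both batches are untreated HEK293 cells grown in DMEM with glutamine and 10% fetal calf serum, and the labels give no genotype other than the line, no oxygen level and no hypoxia treatment for either. The 5' ends of polyadenylated transcripts were sequenced from the material of 100 cells per library, taken from a lysate of 1000 cells.

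Cells answer low oxygen through hypoxia-inducible factor (HIF), a dimer of an oxygen-regulated alpha subunit and the constant partner ARNT. With oxygen present, prolyl hydroxylases of the EGLN family mark the alpha subunit, the VHL ubiquitin ligase binds it, and the proteasome degrades it. When oxygen falls, the dimer binds short hypoxia response elements and raises genes of blood vessel growth, glycolysis, collagen modification, mitophagy and growth restraint. The alpha subunit is controlled mainly as a protein, which RNA counts do not measure, and several of its targets also answer other signals. DDIT4, for example, is induced by the stress factor ATF4 and by glucocorticoids as well.

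Libraries held 373687 to 685181 gene counts in batch B and 686883 and 803168 in batch A, so that 3 counts, the limit set by a count of 0, are worth 3.74 to 8.03 CPM, the counts of a gene per 1000000 gene counts of its library. Synthetic ERCC spike-ins took 1 to 19 counts per batch B library and 1785 and 2127 counts per batch A library, so they could not put the batches on an absolute scale. Fewer cells and less RNA per cell cannot be told apart in such bulk libraries. All 6 genes chosen as marks of the HEK293 lineage had counts, led by CDH2 and LIN28B. CDH2 was at 84.8 ± 15.6 CPM in batch B (SD, n = 3) and 85.3 ± 0.87 in batch A (SD, n = 2). NEFM was lower in every batch B library, at 37.8 ± 5.93 CPM in batch B and 57 ± 12.7 CPM in batch A (edgeR adjusted p = 0.198). NEFL was at 65.7 ± 12.9 CPM in batch B and 56.6 ± 4.35 CPM in batch A. PAX2 had 1 to 4 and EPCAM 0 to 2 counts per library. Leukocyte and endothelial marks in the table, CD3E and VWF, were the only ones analysed here and were at 0 in all 5 libraries. Of the hepatocyte marks, ALB was at 0 throughout, and APOA1 had 1, 4 and 4 counts in batch B and 1 and 2 counts in batch A. The fibroblast marks COL1A1, COL3A1 and DCN summed to 10.4 to 21.9 CPM in batch B and 4.37 to 11.2 CPM in batch A.

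Of the 10 genes, 8 were found in a RefSeq promoter table of build GRCh38.p14, which holds 250 bases before and 50 bases after each annotated start. Only the first listed window of each gene was searched, so any further start was not. The letters searched were the cores of the hypoxia response element, ACGTG and GCGTG, on both strands, and overlapping matches were each counted. Sequences of DDIT4 and PLOD2 are shown because these genes were higher in batch B, that of BNIP3 because it held the most cores, and that of P4HA2 because it held none. Each is given 5' to 3' along the gene's own strand for the 250 bases before the start, with the cores of either strand in capitals.
DDIT4, chr10:72273674-72273923, plus strand: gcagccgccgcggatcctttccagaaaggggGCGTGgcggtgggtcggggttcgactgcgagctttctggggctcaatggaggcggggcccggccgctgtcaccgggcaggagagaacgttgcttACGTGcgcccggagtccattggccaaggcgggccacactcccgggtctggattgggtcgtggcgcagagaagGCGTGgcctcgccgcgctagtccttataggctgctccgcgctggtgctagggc
PLOD2, chr3:146161185-146161434, minus strand: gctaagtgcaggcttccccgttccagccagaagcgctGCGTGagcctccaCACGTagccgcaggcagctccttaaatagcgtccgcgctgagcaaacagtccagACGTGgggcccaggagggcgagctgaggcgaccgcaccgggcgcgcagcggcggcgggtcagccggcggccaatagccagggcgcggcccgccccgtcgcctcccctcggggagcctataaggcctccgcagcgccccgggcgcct
BNIP3, chr10:131981924-131982173, minus strand: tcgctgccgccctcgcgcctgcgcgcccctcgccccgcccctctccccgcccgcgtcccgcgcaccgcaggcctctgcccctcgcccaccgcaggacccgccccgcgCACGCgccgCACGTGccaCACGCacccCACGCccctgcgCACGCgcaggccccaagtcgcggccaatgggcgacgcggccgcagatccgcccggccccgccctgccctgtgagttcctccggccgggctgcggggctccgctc
P4HA2, chr5:132227092-132227341, minus strand: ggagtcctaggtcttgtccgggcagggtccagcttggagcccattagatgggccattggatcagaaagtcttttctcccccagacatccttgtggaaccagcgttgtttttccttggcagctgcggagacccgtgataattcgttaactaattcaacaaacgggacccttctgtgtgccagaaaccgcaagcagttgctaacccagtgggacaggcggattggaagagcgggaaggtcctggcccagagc

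A core was present in 7 of the 8 promoter windows, against 67.1% of 6394 promoters of genes with a mean count of at least 10 and 48.4% of all 35116 promoters. The 6394 are likewise 1 window per gene, while the 35116 were counted without that limit. The ACGTG form was present in 5 of the 8, namely EGLN1, DDIT4, PLOD2, P4HA1 and BNIP3, against 28.9% of the expressed and 21.4% of all promoters. DDIT4 held 4 cores, of which the ACGTG began 125 bases before the start and a GCGTG lay after it, and PLOD2 held 3, with ACGTG 200 and 146 bases before the start. BNIP3 held 6 cores between 143 and 100 bases before the start, and the palindrome CACGTG among them was read as a core on each strand. That palindrome, also the letters of an E-box, was present in 7.26% of all promoters. HIF1A, EGLN1, ADM and P4HA1 held 1 core each. The letters of the promoter windows are rich in G and C, with a median of 71.2% in the 8 genes, 66% in the expressed genes and 58.7% in all of the promoters, and the part of this difference in the shares of cores was not tested. A match describes the letters only, and no binding was measured.

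**Figure D1:**
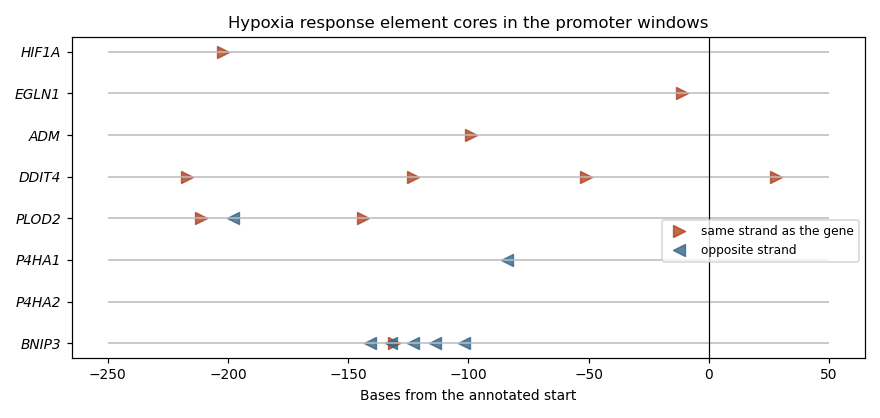
Position of each hypoxia response element core in the promoter windows of 8 genes, with bases from the annotated start on the x axis. Triangles to the right mark cores on the strand of the gene and those to the left cores on the opposite strand. BNIP3 has 6 cores, DDIT4 4, PLOD2 3 and P4HA2 none.

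The batches overlapped in both genes of the oxygen sensing pair. HIF1A, the alpha subunit itself, had 25, 62 and 59 counts in batch B libraries 1, 2 and 3, against 65 and 68 counts in batch A libraries 2 and 3. This is 66.9, 108 and 86.1 CPM in batch B and 94.6 and 84.7 CPM in batch A, so that the batches overlapped and library 1 of batch B was the lowest. EGLN1, the prolyl hydroxylase that marks HIF1A for degradation, had 80.3, 69.5 and 67.1 CPM in batch B and 77.2 and 64.7 CPM in batch A. Both genes had fitted log2 fold changes of batch B over batch A near 0, at 0.018 (SE 0.19) for HIF1A and 0.035 (SE 0.21) for EGLN1. HIF1A-AS1 and HIF1A-AS2, antisense rows at the HIF1A locus, had no count in any library.

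The secreted ligands differed from each other. VEGFA, the growth factor of endothelial cells, was the scarcest of the 10 genes, with 9, 10 and 12 counts in batch B and 11 and 17 in batch A. At 24.1, 17.4 and 17.5 CPM in batch B and 16 and 21.2 CPM in batch A the batches overlapped, with a fitted log2 fold change of 0.047 (SE 0.43). ADM encodes adrenomedullin, a vasodilator peptide, and had 13, 20 and 28 counts in batch B and 15 and 20 in batch A. Scaled to depth these were 34.8, 34.8 and 40.9 CPM in batch B against 21.8 and 24.9 CPM in batch A, so that every batch B library lay above both batch A libraries. The fitted log2 fold change of ADM was 0.68 (SE 0.34).

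DDIT4, also called REDD1, restrains mTOR complex 1 through the TSC complex. It had 66, 95 and 101 counts in batch B libraries 1, 2 and 3, against 53 and 74 counts in batch A libraries 2 and 3. In CPM it stood at 177, 165 and 147 in batch B and at 77.2 and 92.1 in batch A, a mean of 163 ± 14.7 (SD, n = 3) against 84.7 ± 10.6 (SD, n = 2). Every batch B library lay above both batch A libraries, and library 1 of batch B, the shallowest, was the highest. The fitted log2 fold change was 0.94 (SE 0.16), or 1.92-fold.

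The 3 collagen hydroxylases among the 10 genes had fitted values on both sides of 0. PLOD2, a lysyl hydroxylase of collagen telopeptides, had 36, 56 and 83 counts in batch B and 44 and 56 in batch A. These were 96.3, 97.3 and 121 CPM in batch B against 64.1 and 69.7 CPM in batch A, and every batch B library was above both of batch A. The fitted log2 fold change was 0.69 (SE 0.19), or 1.61-fold. P4HA1 and P4HA2 are alternative catalytic subunits of the collagen prolyl 4-hydroxylase. P4HA1 had 34.8, 27.8 and 21.9 CPM in batch B and 34.9 and 39.8 CPM in batch A. All batch B libraries of P4HA1 were below both of batch A, with library 1 of batch B and library 2 of batch A almost level, and its fitted log2 fold change was -0.45 (SE 0.32). P4HA2 had 21.4, 26.1 and 23.4 CPM in batch B and 26.2 and 12.5 CPM in batch A, where 18 and 10 counts gave the widest ratio between the batch A libraries of the 10 genes. Its fitted log2 fold change of 0.35 (SE 0.41) was 0.97 without batch A library 2 and -0.13 without batch A library 3.

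The mitophagy receptors BNIP3 and BNIP3L are related proteins of the outer mitochondrial membrane. BNIP3 had 9, 31 and 45 counts in batch B and 42 and 54 in batch A, that is 24.1, 53.9 and 65.7 CPM against 61.2 and 67.2 CPM. Library 1 of batch B stood apart, since the batch B total shared out by depth would give it 19.4 counts. The fitted log2 fold change of -0.30 (SE 0.23) was -0.084 when this library was left out and -0.57 when library 3 of batch B was. BNIP3P1, a pseudogene row of this gene, had 0, 1 and 2 counts in batch B and none in batch A. BNIP3L had 53.5, 38.2 and 38 CPM in batch B and 40.8 and 32.4 CPM in batch A, with the batches overlapping and a fitted log2 fold change of 0.23 (SE 0.29). Library 1 of batch B was thus the lowest library for BNIP3 and the highest for BNIP3L.

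**Figure D2:**
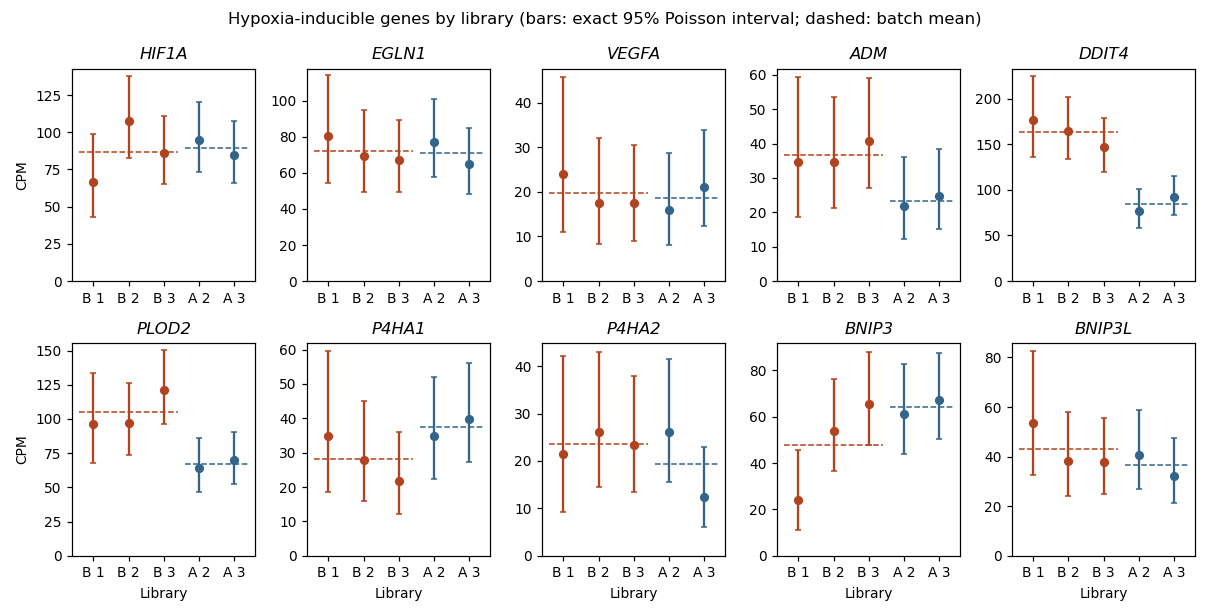
CPM of each of the 10 genes in the 5 libraries, batch B in red and batch A in blue. Bars are exact 95% Poisson intervals, which cover counting error at most, and dashed lines are batch means. DDIT4, PLOD2 and ADM lie higher in every batch B library than in either batch A library, P4HA1 lies lower, and the other 6 overlap.

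All 10 genes passed the filter on low counts. DDIT4 and PLOD2 passed the threshold of edgeR's quasi-likelihood test over 9215 genes, as they were chosen to, in a comparison where 4.2% of tested genes were called, 2.15% higher and 2.05% lower in batch B. The batches did not overlap in 4 of the 10 genes, against 31.3% of all tested genes. Nothing is read from these shares, since the same comparison served the choice. Of the 10 genes, PLOD2 was the nearest inside the threshold and ADM, with a log2 fold change of 0.68 but a larger standard error, the nearest outside, called in 0 of 10 alternative settings. The alternative settings repeat the comparison that chose DDIT4 and PLOD2, so a call kept in them is no separate support. Over the 10 settings the log2 fold change of DDIT4 was 0.85 to 1.06. PLOD2 was lost with the DESeq2 Wald test, with no filter on low counts and when library 2 or 3 of batch A or library 3 of batch B was left out, with log2 fold changes of 0.58 to 0.86 over the 10 settings.

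**Figure D3:**
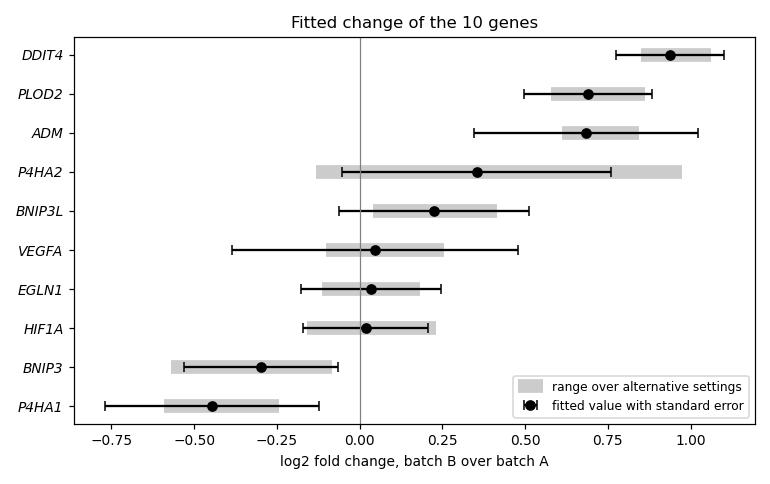
Fitted log2 fold change of batch B over batch A for the 10 genes, with its standard error, and in grey the range over the alternative settings. DDIT4 is highest at 0.94 and P4HA1 lowest at -0.45, and the grey ranges of HIF1A, EGLN1, VEGFA and P4HA2 cross 0.

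Summed over the 10 genes, batch B libraries held 613, 638 and 629 CPM and batch A libraries 514 and 509 CPM. Nothing is read from this difference, since DDIT4 and PLOD2 were chosen as higher in batch B. The 8 genes other than DDIT4 and PLOD2 summed to 340, 375 and 361 CPM in batch B and to 373 and 347 CPM in batch A, with overlap between the batches. Their median log2 fold change was 0.041, beside 0.0040 for all tested genes. In a pair of libraries of almost equal depth, batch B library 3 and batch A library 2, raw counts can be set side by side. The pair is part of the same comparison, so it is no separate support for DDIT4 and PLOD2. DDIT4 had 101 counts in the batch B library and 53 in the batch A library, PLOD2 83 and 44, and ADM 28 and 15. HIF1A had 59 and 65, EGLN1 46 and 53, and P4HA1 15 and 24 in the same order. BNIP3 had 45 and 42, BNIP3L 26 and 28, VEGFA 12 and 11, and P4HA2 16 and 18.

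**Figure D4:**
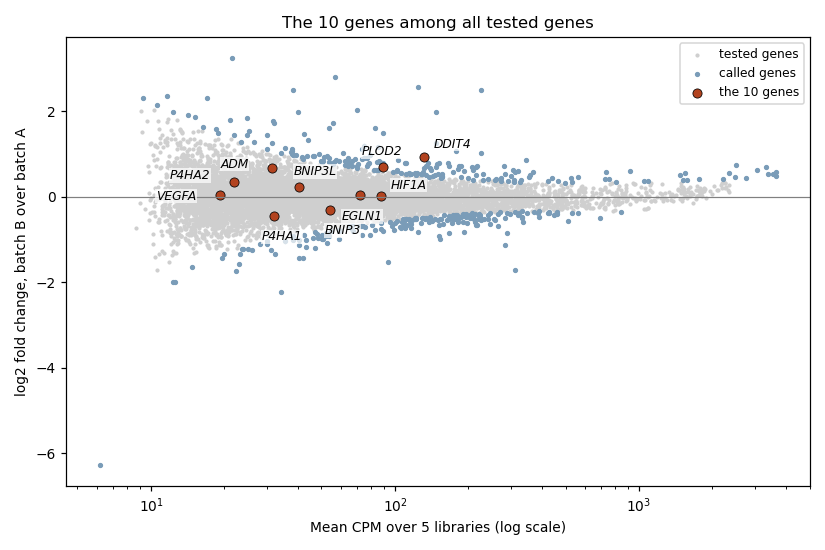
Mean CPM over the 5 libraries on a log scale and fitted log2 fold change of batch B over batch A for all tested genes in grey, called genes in blue and the 10 genes in red. DDIT4 and PLOD2 lie among the called genes, and the other 8 lie among those not called.

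Levels were compared between the 10 genes per kilobase of the longest protein-coding transcript in GENCODE release 29, although reads from 5' ends need not grow with length. Over the 5 libraries DDIT4 had the highest level, at 75.3 ± 25.5 CPM per kilobase (SD, n = 5), and its range of 44.1 to 101 did not meet that of PLOD2, the next, at 17.2 to 32.5. PLOD2 and HIF1A, at 22.2 ± 3.78, overlapped, as did each neighbouring pair from there through BNIP3, ADM, BNIP3L and P4HA1 to EGLN1, at 10.1 ± 0.94. EGLN1 did not overlap P4HA2, at 6.54 ± 1.69, which overlapped VEGFA, at 5.44 ± 0.94. DDIT4, PLOD2 and HIF1A were also the first 3 in CPM without length, where EGLN1 was the fourth. Without length the ranges overlapped, at 77.2 to 177 CPM for DDIT4, 64.1 to 121 for PLOD2 and 66.9 to 108 for HIF1A. The separation of DDIT4 from PLOD2 thus depended on the division by length. Among 20087 rows with a count, DDIT4 ranked 1583rd by mean CPM.

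Close relatives of the 10 genes, and genes with like symbols, were measured in the same fit. Of these 8 were tested, namely HIF1AN, PLOD1, PLOD3, EGLN2, EGLN3, EPAS1, BNIP1 and VEGFB. HIF1AN and BNIP1 were taken in by symbol and are not close relatives. By edgeR, DESeq2 or limma-voom 0 of the 8 passed the threshold, while 1 was higher at an unadjusted p under 0.05 by edgeR. PLOD1, a lysyl hydroxylase of collagen helices, had 139 counts over batch B and 116 over batch A, with a log2 fold change of 0.15 (SE 0.20, edgeR adjusted p = 0.785), and PLOD3 had 67 and 43, at 0.53 (SE 0.31). EGLN2 and EGLN3, the other HIF prolyl hydroxylases, had 59 and 32 counts over batch B and 33 and 18 over batch A, at 0.74 (SE 0.35) and 0.70 (SE 0.48), with edgeR adjusted p = 0.253 and 0.508. EPAS1, the alpha subunit of HIF-2, had 55 counts over batch B and 39 over batch A. DDIT4L, the paralog of DDIT4, had 2 counts over batch B and 4 over batch A, and P4HA3 had 5 and 1. ADM2 had 4 counts over batch B and 1 over batch A, and ADM5 had 6 and 7, so that in these 4 rows no difference was detectable at this depth.

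The wider pathway was read from 8 lists without the 10 genes, of which 106 genes were tested. The 8 tested genes of the paragraph above, HIF1AN to VEGFB, are among these 106, so the readings are not separate. By edgeR's test 2 of the 106 were higher and 5 lower in batch B, or 6.6%, against the 4.2% of all tested genes. Their median log2 fold change was 0.060.

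Among HIF subunits and oxygen sensing genes, 0 of 14 tested were higher and 1 was lower, with a median log2 fold change of 0.21. At an unadjusted p under 0.05 edgeR had 1 gene higher and 2 lower. DESeq2 and limma-voom also called 0 higher. TCEB1, elongin C of the VHL ligase, fell to 294 ± 51.2 CPM in batch B against 386 ± 15.2 CPM in batch A (SD, n = 3 and 2), with a log2 fold change of -0.34 (SE 0.11, edgeR adjusted p = 0.0469). That call was lost in all 10 alternative settings, with adjusted p of 0.052 to 0.668. Its partner TCEB2 stood at 871 ± 56.6 CPM in batch B and 852 ± 48.5 CPM in batch A, and RBX1, the ring subunit of that ligase, at 439 ± 23.8 and 547 ± 12.9 CPM (edgeR adjusted p = 0.101).

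Of 18 tested glycolytic HIF targets 0 were higher and 1 was lower, with a median log2 fold change of 0.12. At an unadjusted p under 0.05 edgeR had 3 higher and 1 lower. Of the other tools, limma-voom called 1 higher and DESeq2 0. PGAM1, a phosphoglycerate mutase, had 85.6, 110 and 126 CPM in batch B against 217 and 225 CPM in batch A, and its log2 fold change of -0.98 (SE 0.14, edgeR adjusted p = 2.38e-09) kept its call in all 10 alternative settings. GAPDH and ENO1, the most abundant of the list, were at 1862 ± 161 and 1336 ± 127 CPM in batch B and at 1708 ± 92.6 and 1090 ± 52 CPM in batch A, and neither passed (edgeR adjusted p = 0.584 and 0.0997).

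Of 16 tested other HIF targets 1 was higher and 0 were lower by edgeR, with a median log2 fold change of 0.049. At an unadjusted p under 0.05 edgeR had 1 higher and 1 lower. DESeq2 and limma-voom called 0 in this list. The gene called by edgeR was HILPDA, a lipid droplet protein, with 17, 14 and 24 counts in batch B against 8 and 13 in batch A. It had 45.5, 24.3 and 35 CPM in batch B against 11.7 and 16.2 CPM in batch A and a log2 fold change of 1.28 (SE 0.40, edgeR adjusted p = 0.0384). The call was lost in 7 of 9 alternative settings that gave an adjusted p, and adjusted p over the 9 ran from 0.0309 to 0.289. Leaving out library 2 or 3 of batch A gave edgeR adjusted p = 0.289 and 0.142, and leaving out library 1 or 3 of batch B gave 0.146 and 0.106. MIF, a cytokine, and TFRC, the transferrin receptor, the most abundant of the list, were at 1547 ± 25.7 and 244 ± 52.4 CPM in batch B and at 1503 ± 85.2 and 228 ± 9.03 CPM in batch A. EPO had no count in batch B and 1 in batch A.

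Among the lists around single members, those of the mTOR axis, of collagen and of VEGF held no gene called by edgeR. Of 14 tested genes of the TSC and mTOR complex 1 axis, through which DDIT4 acts, 0 passed, with a median log2 fold change of -0.019 and 0 genes at an unadjusted p under 0.05 by edgeR. DESeq2 and limma-voom also called 0 in this list and in the next ones of collagen and of VEGF. EIF4EBP1, a translation repressor that mTOR complex 1 phosphorylates, was at 306 ± 60.6 CPM in batch B and 371 ± 37.2 CPM in batch A. RHEB, the GTPase switched off by TSC, was at 195 ± 9.23 CPM in batch B and 208 ± 1.73 CPM in batch A. Of 13 tested genes of collagen modification 0 passed by edgeR, where 2 were lower at an unadjusted p under 0.05, and the most abundant, PPIB and P4HB, were at 297 ± 45.3 and 257 ± 20 CPM in batch B and at 290 ± 43.9 and 322 ± 19.5 CPM in batch A. Of 7 tested genes of VEGF and adrenomedullin signalling 0 passed, and 0 had an unadjusted p under 0.05, with VEGFB at 56.5 ± 11.3 CPM in batch B and 42.2 ± 1.99 CPM in batch A. FLT4, a receptor of the VEGF family, was at 44.6 ± 27.2 CPM in batch B and 47.4 ± 5.21 CPM in batch A.

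Of 15 tested mitophagy genes 1 was higher and 2 were lower by edgeR, or 20%, against the 4.2% of all tested genes. At an unadjusted p under 0.05 edgeR had 1 higher and 4 lower. GABARAP and GABARAPL2, ubiquitin-like proteins of the autophagosome that bind receptors such as BNIP3L, fell to 92.6 ± 21.6 and 215 ± 17.9 CPM in batch B against 172 ± 3.8 and 321 ± 13.9 CPM in batch A. Their log2 fold changes were -0.81 (SE 0.16, edgeR adjusted p = 3.3e-05) and -0.55 (SE 0.12, edgeR adjusted p = 0.000418), and both calls were lost with the DESeq2 Wald test (adjusted p = 0.0903 and 0.175). FKBP8, a receptor of the outer mitochondrial membrane, rose to 89 ± 17.2 CPM in batch B against 50.1 ± 4.92 CPM in batch A, with a log2 fold change of 0.88 (SE 0.22, edgeR adjusted p = 0.00307). The call of FKBP8 was lost when library 2 of either batch was left out, that of batch A first (adjusted p = 0.0759 and 0.0649), after thinning and with DESeq2. PHB2, a prohibitin and the most abundant of the list, was at 412 ± 42.8 CPM in batch B and 414 ± 1.98 CPM in batch A.

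ATF4 and its targets were measured because DDIT4 also answers that factor. By edgeR 0 of 9 tested were higher and 1 was lower in batch B, or 11.1%, against the 4.2% of all tested genes. Their median log2 fold change was -0.17, and 1 was higher and 2 were lower at an unadjusted p under 0.05 by edgeR. DESeq2 and limma-voom also called 0 higher. PSAT1, an enzyme of serine synthesis, fell to 160 ± 32.1 CPM in batch B against 255 ± 6.28 CPM in batch A (log2 fold change -0.60, SE 0.13, edgeR adjusted p = 0.000287), a call lost with the DESeq2 Wald test (adjusted p = 0.188). ATF4 was at 369 ± 22.6 CPM in batch B and 425 ± 2.29 CPM in batch A (edgeR adjusted p = 0.44), and PHGDH, which starts serine synthesis, at 400 ± 38.9 and 325 ± 25.8 CPM (edgeR adjusted p = 0.0909).

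**Figure D5:**
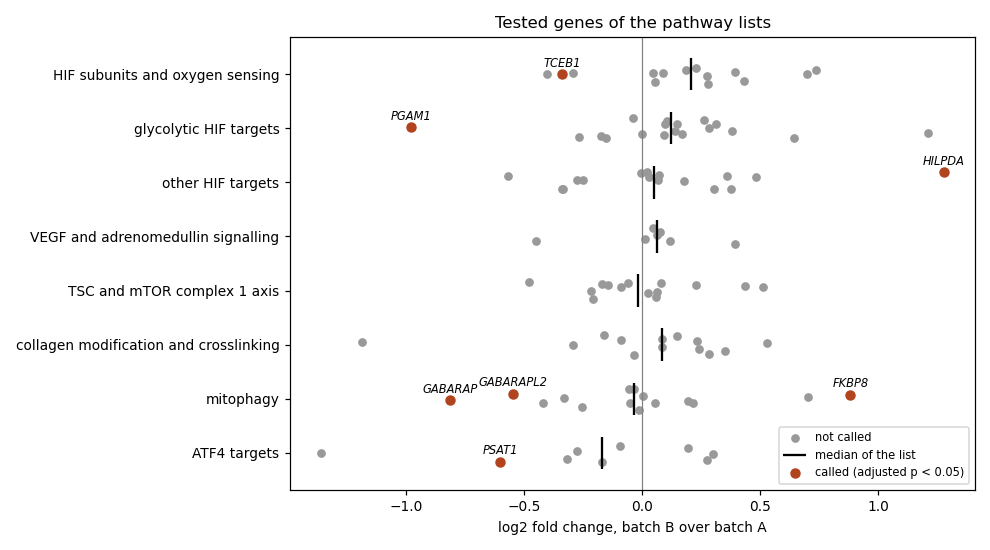
Fitted log2 fold change of batch B over batch A for the tested genes of 8 pathway lists, called genes in red with their names, other genes in grey, and the median of each list as a black bar. Calls lie on both sides of 0, with HILPDA highest at 1.28 and PGAM1 lowest of the called genes at -0.98.

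The genes whose pattern over the 5 libraries was most like that of DDIT4 or PLOD2 were sought among 5973 other tested genes with a mean count of at least 20. Likeness was the root mean square difference of log2(CPM + 1), each gene centred on its own mean. Nearest to DDIT4 were CIZ1, a nuclear zinc finger protein, and MINOS1, a subunit of the mitochondrial contact site complex, at 0.112 each, and BRD9, a chromatin remodeller subunit, at 0.118. CIZ1 had 88.3, 76.5 and 86.1 CPM in batch B and 40.8 and 49.8 CPM in batch A. Nearest to PLOD2 were GIT1, a GTPase-activating protein, at 0.0331, MBD3, a chromatin protein, at 0.048, and NACC1, a transcription regulator, at 0.0516. GIT1 had 69.6, 73 and 93.4 CPM in batch B and 46.6 and 52.3 CPM in batch A, high in the same library of batch B as PLOD2. DDIT4 and PLOD2 were both chosen as higher in batch B, so that a like pattern over the batches was set by the choice. The named neighbours were likewise higher in every batch B library than in either batch A library. Counting error was not part of the measure, and GIT1 had 26, 42 and 64 counts in batch B and 32 and 42 in batch A. The order is thus a description, and no tie between these genes was tested. DDIT4 was highest in batch B library 1 and PLOD2 in batch B library 3.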

How the data were processed

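The deposited table holds whole-number counts per gene symbol for 5 libraries, with no normalization by the authors, and 52 of its 24549 rows are ERCC spike-ins. The submitters' processing notes name STAR 2.4.0a, cutadapt 1.2.1 and the builds hg19 and GRCh37. For the counter, the annotation, strand and the collapsing of molecular identifiers, the entry is: not given in the sources used here. Thus counting intervals cover counting error only. Each column's batch was read from the start of its name, which the titles also have, and 0 columns were left unused. The labels do not say whether libraries came from separate cultures, so p-values measure only how far these libraries differ, and that spread may be technical.

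CPM were computed here on gene rows alone, with spike-ins left out. All genes were fitted with edgeR 4.0.16 in R 4.3.3 (TMM, filterByExpr, quasi-likelihood F test, batch as the only term), with Benjamini-Hochberg adjustment over 9215 genes and a threshold of 0.05. Standard errors were taken as the absolute log2 fold change over the root of F. The test was checked on simulated data. Alternatives were edgeR with RLE size factors, the scaling method of DESeq2, and the DESeq2 1.42.0 Wald test on the same genes. Others were limma-voom 3.58.1, no filter, thinning and leaving out each library. A fit that leaves 1 batch A library assumes that it varies like those of batch B. The members and lists were chosen with earlier results of these data known. Genes named from the lists are the called ones, up to 6 by p, and the 2 of highest CPM; close paralogs, rows that share a symbol's start and the 3 most like genes are also named. The marks of the HEK293 lineage and of other cell types were a separate set of lists. From these the highest, those near 0, those at 0, NEFM and NEFL are named. EPO and these choices within the mark lists were made after their values were seen. Rows of paralogs and pseudogenes may share reads.

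Promoter sequences came from RefSeq on GRCh38.p14, matched by symbol, and are on another build than the deposited data, whose reads have no position here. In 380 of 516 windows checked, bases after the start were found in a GENCODE transcript of that symbol, and in 0 on the reverse strand.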

Additional observations from a re-analysis of the deposited data

How the results depend on the processing

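The count of 387 called genes was 41 with the DESeq2 Wald test, 164 after thinning to the shallowest library in 1 draw, and 138 to 333 when a library was left out. The fits without batch A library 2, batch A library 3 and batch B library 2 gave 138, 152 and 202. The 7 called genes of the pathway lists were 1 with DESeq2, 4 after thinning and 4 to 8 when a library was left out. In both counts the cause was not tested. The edgeR test with RLE size factors, limma-voom and no filter kept both counts within 1.5 times. Promoters with a core were 7 of 8 in the whole window and 7 of 8 before the start alone. The log2 fold change of DDIT4 was 0.85 to 1.06, of ADM 0.61 to 0.84 and of P4HA1 -0.59 to -0.24 over 10 settings, and those of HIF1A (-0.16 to 0.23), EGLN1 (-0.11 to 0.18), VEGFA (-0.10 to 0.25) and P4HA2 changed sign. VEGFA had counts under 20 and a standard error of 0.43. A difference of that size, and possibly a larger one, could be missed at this depth. No paired analysis was possible because the column numbers of batch A, 2 and 3, are not the replicate numbers of its labels.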
